A study of Mus musculus with 20 samples.

Results

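MHC class I molecules display peptides from inside the cell to CD8+ T cells. The genes described here build and load them: the heavy chains H2-K1 and H2-D1, their light chain B2m, the peptide transporter Tap1 and Tap2, tapasin (Tapbp), and the immunoproteasome subunits Psmb8, Psmb9, and Psmb10. They were selected by symbol. All 9 genes were on the array, among 34797 symbols, through 11 of its 55681 probes, and each of the 11 passed the filter on dim probes that 36930 probes passed. H2-K1 and Psmb9 had 2 probes each, and a gene is described by its brightest probe unless another is named.

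The series asked which genes respond to asbestos and carbon nanotubes of different length in the pleural cavity. RNA was taken from the diaphragm of female C57Bl/6 mice that were injected at an age of 8 weeks with 100 μL of 0.5% BSA in saline and killed 12 weeks later. The vehicle was given alone (control), with 25 μg amosite asbestos (SFA or LFA), or with 5 μg carbon nanotubes (NTS or NTL), to 4 mice per group. SFA is the short asbestos, milled from the long fibers, with 3.1% of fibers at 5 μm or longer, and LFA is the long asbestos, with 100%. NTS and NTL are short and long nanotubes from different makers, so nanotube length and source cannot be told apart. Asbestos and nanotubes differed in dose, and LFA and NTL are therefore set side by side by their own values. The labels name 4 mice per group as separate samples, and the P values rest on the spread between them. All mice were wild type, and the tissue was bulk diaphragm, in which more cells of a type cannot be told apart from more RNA per cell.

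A proteasome cuts cytosolic proteins into peptides, and in the immunoproteasome Psmb8, Psmb9, and Psmb10 take the places of the catalytic subunits Psmb5, Psmb6, and Psmb7. The Tap1 and Tap2 heterodimer pumps the peptides into the endoplasmic reticulum, where tapasin and its partners fit them onto a heavy chain paired with B2m. Interferon-γ is known to induce most of these genes, through IRF1 and the class I transactivator Nlrc5, and NF-κB acts on the heavy chain promoters. All nucleated cells carry class I molecules, and leukocytes carry many more than muscle fibers.

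The start regions of 5 members are shown with matches to known motif letters, and any relation to the signals below was not tested. Each is the 200 bases before the RefSeq transcription start (GRCm38.p6), 5′ to 3′ on the gene's strand, with matches in capitals. The searched motifs, on both strands, were the NF-κB site GGGATTCCC, the interferon response core AANNGAAA, the cyclic AMP response core TGACG, and the gamma-activated site TTCNNNGAA.

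H2-K1, chr17:34000348-34000547, minus strand: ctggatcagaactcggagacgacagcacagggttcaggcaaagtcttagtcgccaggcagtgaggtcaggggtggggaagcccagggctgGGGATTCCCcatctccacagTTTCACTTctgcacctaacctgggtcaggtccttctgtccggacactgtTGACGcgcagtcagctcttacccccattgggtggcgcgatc
H2-D1, chr17:35262894-35263093, plus strand: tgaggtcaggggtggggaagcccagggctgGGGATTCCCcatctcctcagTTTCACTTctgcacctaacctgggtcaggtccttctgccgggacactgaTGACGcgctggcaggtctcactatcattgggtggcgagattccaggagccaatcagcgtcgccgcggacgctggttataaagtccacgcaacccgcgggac
B2m, chr2:122147487-122147686, plus strand: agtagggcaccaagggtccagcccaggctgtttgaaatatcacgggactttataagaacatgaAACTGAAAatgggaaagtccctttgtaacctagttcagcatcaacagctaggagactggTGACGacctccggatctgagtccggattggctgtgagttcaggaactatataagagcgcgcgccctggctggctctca
Tap1, chr17:34187356-34187555, plus strand: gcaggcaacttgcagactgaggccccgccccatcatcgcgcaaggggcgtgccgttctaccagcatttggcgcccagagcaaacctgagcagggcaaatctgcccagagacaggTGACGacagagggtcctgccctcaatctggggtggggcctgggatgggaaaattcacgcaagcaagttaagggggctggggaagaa
Psmb8, chr17:34197995-34198194, plus strand: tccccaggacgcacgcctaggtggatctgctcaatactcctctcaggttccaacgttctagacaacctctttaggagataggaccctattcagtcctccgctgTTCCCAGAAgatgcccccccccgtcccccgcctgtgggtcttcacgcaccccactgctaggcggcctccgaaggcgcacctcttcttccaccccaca

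Windows of 300 bases, which add 50 bases before the printed part and 50 after the start, were given for 8 of the 9 members. The NF-κB letters GGGATTCCC were found in H2-K1 and H2-D1, and in 0.353% of all 32851 windows of the table. Other forms of the NF-κB site were not searched, so the other members may hold them. The interferon core was found in H2-K1, H2-D1, and B2m, and in 23.9% of all windows. TGACG was found in H2-K1, H2-D1, B2m, Tap1, and Psmb9, against 20.8%, and the gamma-activated site only in Psmb8, against 8.30%. None of these letters was found in the windows of Tapbp and Psmb10. From the NF-κB match to the end of TGACG, H2-K1 and H2-D1 were the same at 70 of 74 bases. Tap1 and Psmb9 are transcribed away from each other from starts 226 bases apart, so their windows share 275 bases and 1 TGACG match. A match describes letters in a window and shows no binding.

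The array probes of the members lie at chr17:34133055-34133114 and chr17:34133984-34134043 (H2-K1), chr17:35403886-35403945 (H2-D1), chr2:121978401-121978460 (B2m), chr17:34330854-34330913 (Tap1), chr17:34353116-34353175 (Tap2), chr17:34065963-34066022 (Tapbp), chr17:34337771-34337830 (Psmb8), chr17:34319174-34319233 and chr17:34322762-34322821 (Psmb9), and chr8:108459677-108459736 (Psmb10), in the files' build, NCBI37. Apart from B2m and Psmb10 the members thus sit in the MHC region of chromosome 17. Class I heavy chains are near-identical copies of each other, so a probe of H2-K1 or H2-D1 may also bind a related transcript, and values of single heavy chains are uncertain to that extent.

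Every value below is a log2 signal from which the array's own 75th percentile was subtracted, so that 0 is the brightness of a probe at that percentile, and a difference of 1 is 2-fold. A change was called at 2-fold and a Benjamini-Hochberg adjusted P value under 0.05 over all tested probes (limma). The 75th percentile of signal ran from 294 to 996 between arrays and the share of spots well above background from 53.0% to 68.1%. This percentile was 294 to 648 in control, 339 to 589 in SFA, and 380 to 487 in NTS. In LFA it was 548 to 964 and in NTL 530 to 996. Long-fiber arrays thus tended to be brighter, and array brightness and long fibers cannot be fully told apart. All 9 skeletal muscle markers (such as Acta1 and Ckm) were well above background on all 20 arrays, as the diaphragm label requires. Liver genes differed widely between arrays in every group (a list mean of −3.29 to 8.19 relative to control), and none of 7 was called. Signal along the transcripts also differed between arrays. The 5′ to 3′ index of an array, the mean difference between the 5′ and 3′ probes of 1155 transcripts other than the members, ran from −0.56 in SFA replicate 1 and −0.48 in LFA replicate 3 to 0.47 in NTS replicate 3. A low index means that signal toward the 5′ end was low, and what set it apart between arrays was not tested. It averaged 0.12 ± 0.31 in control, −0.14 ± 0.36 in SFA, −0.16 ± 0.25 in LFA, 0.22 ± 0.39 in NTS, and −0.04 ± 0.30 in NTL (mean ± SD, n = 4).

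In both long-fiber groups the mean of each of the 9 genes was above the control mean, and in neither did a gene pass the test. The changes in LFA ran from 0.15 (Tap1) to 0.81 (H2-K1), with a median of 0.35, where all tested probes had a median of −0.28. In NTL they ran from 0.16 (Psmb10) to 1.09 (Tap1), with a median of 0.63 against −0.25. Of all tested probes 34.1% were higher in LFA and 34.7% in NTL. With limma 0 of 9 members were called in LFA vs control, where 3.94% of all probes were, and 0 of 9 in NTL vs control, where 6.81% were. By the adjusted P value alone the members' counts were again 0 and 0, and the backgrounds 4.34% and 7.84%. At an unadjusted P value under 0.05, 3 of 9 members passed in LFA (H2-K1, Psmb8, and Psmb9) and 3 in NTL (H2-D1, Psmb8, and Psmb9), against 23.9% and 23.5% of all probes.

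**Figure D1:**
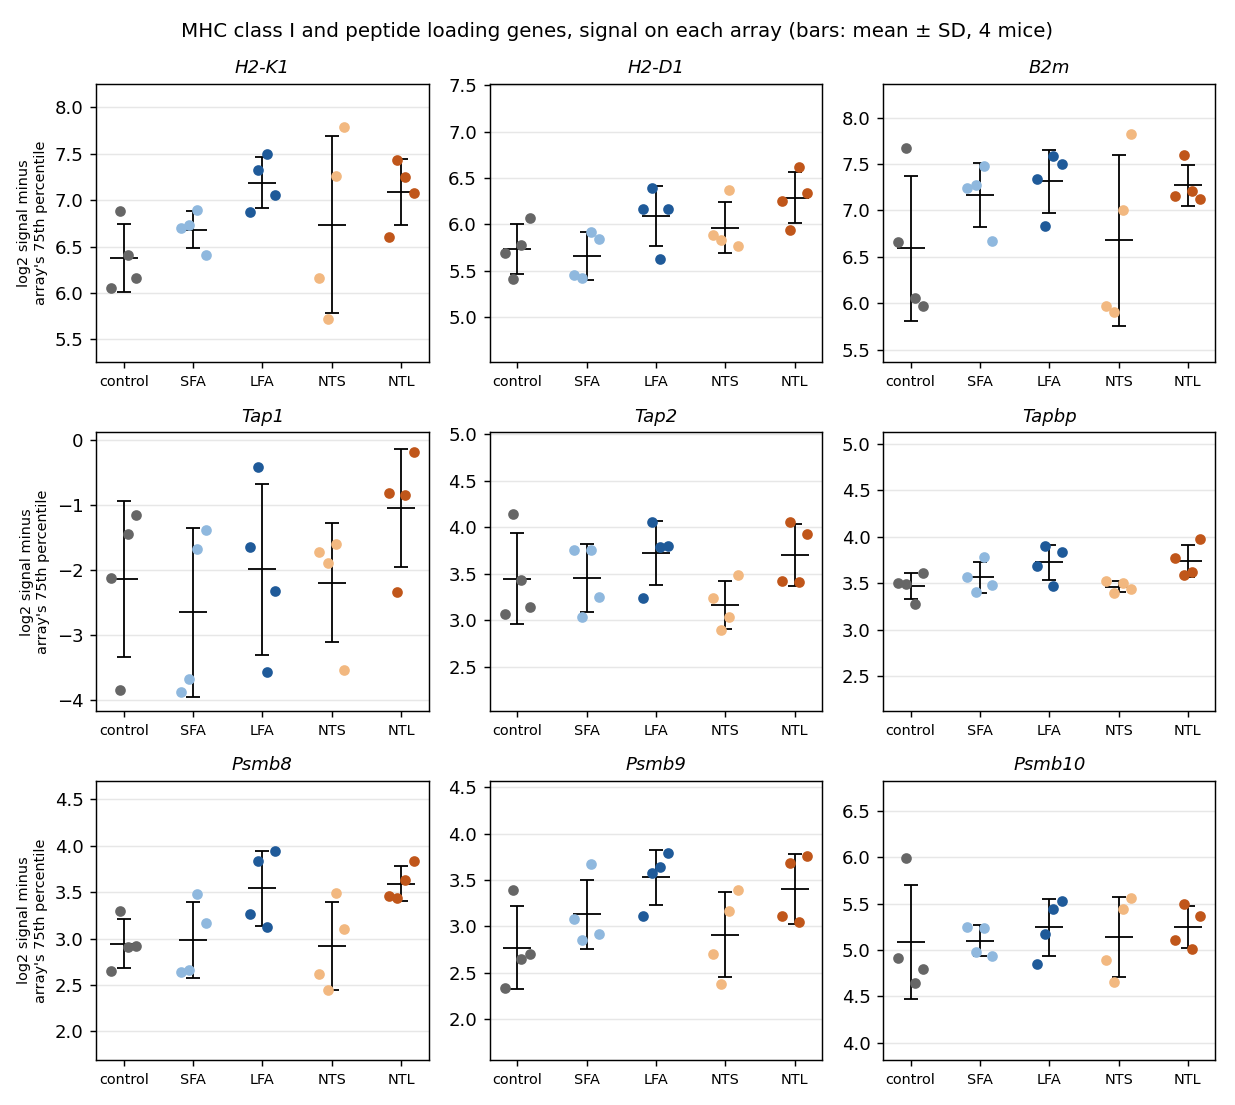
Log2 signal minus the 75th percentile of the array for the 9 genes, with 1 point per mouse and bars for mean ± SD of 4 mice. The 4 NTL points of Psmb8 lie above the 4 control points, and in the other panels long-fiber and control points overlap.

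The heavy chain H2-K1 had signals of 6.06, 6.88, 6.41, and 6.16 in the 4 control mice. In LFA it was at 6.88, 7.32, 7.49, and 7.05, and in NTL at 6.60, 7.43, 7.25, and 7.07. Of 4 mice in each long-fiber group, 3 lay above every control mouse. The difference was 0.81 in LFA (SE 0.36, adjusted P = 0.183) and 0.71 in NTL (SE 0.36, adjusted P = 0.244). SFA, at 6.41 to 6.89, was 0.30 higher than control. The NTS mice were split, with 6.16 and 5.72 in replicates 1 and 2 and 7.26 and 7.78 in replicates 3 and 4. The other H2-K1 probe, which lies further 5′ in the transcript, did not follow: its mean was 0.09 lower in LFA and 0.15 higher in NTL than in control. With the 2 probes averaged the H2-K1 difference came to 0.36 in LFA and 0.43 in NTL.

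H2-D1, the second classical heavy chain of this strain, was at 5.69, 5.42, 5.78, and 6.06 in control. It was at 6.17, 6.39, 5.63, and 6.17 in LFA and at 6.25, 5.95, 6.62, and 6.34 in NTL. Again 3 of 4 mice of each long-fiber group were above all controls. The difference was 0.35 in LFA (95% interval −0.14 to 0.84) and 0.55 in NTL (0.06 to 1.05, adjusted P = 0.163), and the short fibers gave −0.08 (SFA) and 0.23 (NTS).

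B2m, the light chain shared by all class I molecules, overlapped between all groups. Control mice spread from 5.97 to 7.67, LFA mice from 6.83 to 7.59, and NTL mice from 7.12 to 7.60. Control replicate 2 was above every LFA and NTL mouse, and the other 3 controls, at 6.65, 6.06, and 5.97, were below all of them. The differences were 0.72 in LFA (SE 0.41, adjusted P = 0.287) and 0.68 in NTL (SE 0.41, adjusted P = 0.334). SFA had nearly as high a mean difference, 0.58 (95% interval −0.28 to 1.44), whereas NTS differed by 0.09. The NTS mice were split here too, at 5.97, 5.91, 7.01, and 7.82.

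The transporter subunit Tap1 was read by a dim probe with a wide spread. Control mice were at −2.11, −3.84, −1.45, and −1.14, LFA mice at −1.65, −0.41, −3.57, and −2.32, and NTL mice at −0.81, −2.33, −0.84, and −0.18. The mean of NTL was 1.09 above control (95% interval −0.49 to 2.68, adjusted P = 0.410) and that of LFA 0.15 (−1.43 to 1.73). In NTL 3 of 4 mice exceeded every control. The lowest Tap1 value of each group belonged to control replicate 2, SFA replicate 1, LFA replicate 3, NTS replicate 4, and NTL replicate 2, and each of these arrays had the lowest 5′ to 3′ index of its group.

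Tap2, the partner of Tap1, ranged from 3.07 to 4.14 in control, 3.23 to 4.06 in LFA, and 3.41 to 4.05 in NTL, and its differences were 0.27 and 0.26. Tapbp had the narrowest spread of the members within control, from 3.27 to 3.61, and reached 3.47 to 3.90 in LFA and 3.59 to 3.97 in NTL. Its differences were 0.25 (95% interval −0.12 to 0.63) and 0.27 (−0.11 to 0.65), and the upper bounds of Tap2 were 0.86 and 0.84.

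The immunoproteasome subunits Psmb8 and Psmb9 differed more. Psmb8 was at 2.66, 3.29, 2.91, and 2.92 in control, 3.26, 3.83, 3.13, and 3.94 in LFA, and 3.46, 3.43, 3.63, and 3.84 in NTL. It was the 1 member whose 4 NTL mice all exceeded the 4 controls, which held for 6.34% of all tested probes. The difference was 0.59 in LFA (SE 0.28, adjusted P = 0.204) and 0.65 in NTL (SE 0.28, adjusted P = 0.168). Psmb9 was at 2.33, 3.39, 2.65, and 2.70 in control, 3.11, 3.58, 3.64, and 3.79 in LFA, and 3.11, 3.69, 3.04, and 3.76 in NTL. In Psmb9, LFA was higher by 0.76 (SE 0.30, adjusted P = 0.132), the smallest adjusted P value of any member against control in this fit, and NTL by 0.63 (SE 0.30, adjusted P = 0.203). A second Psmb9 probe was well above background on 8 of 20 arrays and enters below only in the relation to the 5′ to 3′ index. Psmb10 differed by 0.16 in both long-fiber groups, with control from 4.64 to 5.99, LFA from 4.85 to 5.53, and NTL from 5.01 to 5.49.

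**Figure D2:**
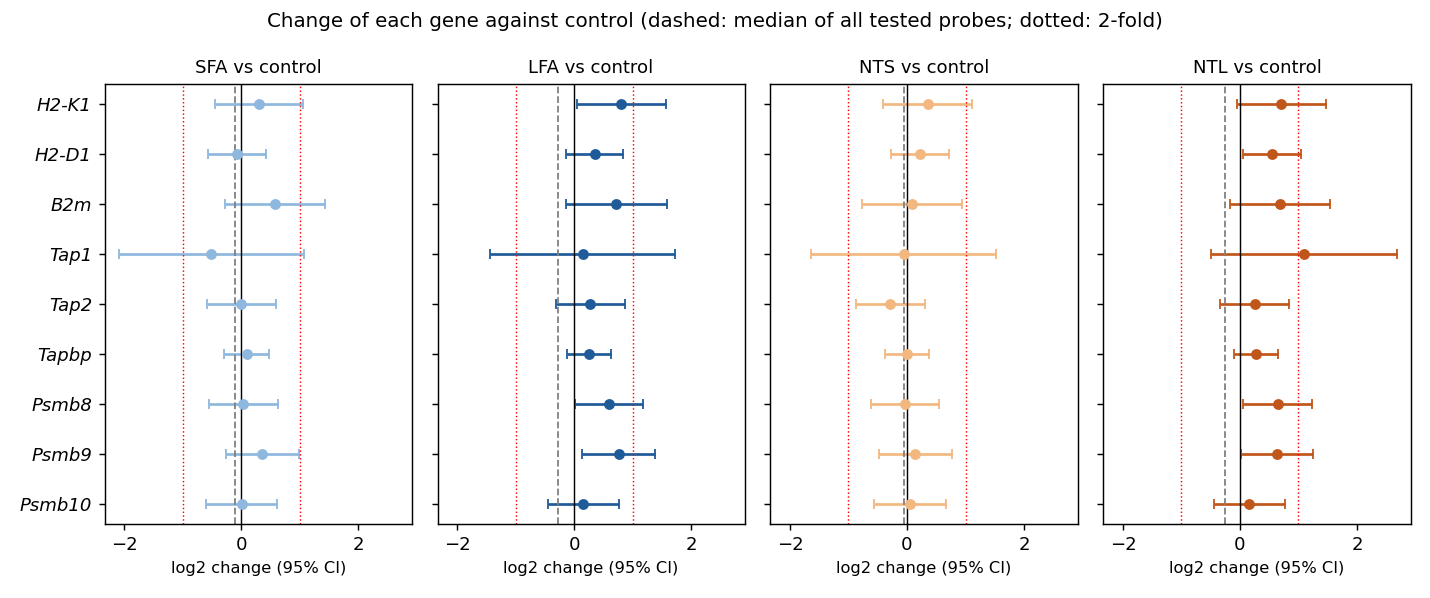
Log2 change of each gene against control in the 4 fiber groups, with 95% confidence intervals from limma (4 mice per group). The dashed line is the median of all tested probes and the dotted lines mark 2-fold. All 9 points lie right of 0 for LFA and NTL.

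On average the members lay near control in the short-fiber groups, but their medians had opposite signs on different slides, as given below. In SFA the changes ran from −0.51 (Tap1) to 0.58 (B2m) with a median of 0.04, and in NTS from −0.28 (Tap2) to 0.35 (H2-K1) with a median of 0.05. With limma 0 of 9 members and 0% of probes were called in SFA vs control, and likewise 0 of 9 and 0% in NTS vs control, and 0 members had an unadjusted P value under 0.05 in either. The 95% intervals still reached past 2-fold for Tap1 (upper bounds 1.07 in SFA and 1.53 in NTS), H2-K1 (1.06 and 1.11), and, in SFA, B2m (1.44).

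Long against short fibers, all 9 means were again higher for the long ones, in asbestos with a median of 0.40 and in nanotubes with a median of 0.49. With limma 0 of 9 members were called in LFA vs SFA, where 1.16% of all probes were by either rule, and 0 had an unadjusted P value under 0.05, as 12.5% of all probes did. In NTL vs NTS 0 of 9 were called against 7.60% of all probes at 2-fold and 8.78% by the adjusted P value alone, and 1 member, Psmb8, had an unadjusted P value under 0.05, as 25.1% of all probes did. Psmb8 was 0.68 higher in NTL than in NTS (95% interval 0.09 to 1.26, adjusted P = 0.138). Tapbp was 0.28 higher, and its 4 NTL mice all lay above its 4 NTS mice, as in 7.61% of all tested probes. These comparisons share their long-fiber arrays with those against control.

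LFA and NTL, at their different doses, differed by −0.95 (Tap1) to 0.13 (Psmb9) with a median of 0.0017, and 0 of 9 members and 0% of probes were called. Without Tap1, whose interval was −2.53 to 0.63, the largest upper bound of any member was 0.90 (B2m). The difference between the 2 length effects, asbestos minus nanotube, was −0.49 (Tap1) to 0.15 (H2-K1) for the members, again with 0 of 9 and 0% called, and 0 of 9 members had an unadjusted P value under 0.05 in either comparison. Over the 5 groups at once, limma's F test called 0 of 9 members against 5.89% of all probes, and 1 member, Psmb8, had an unadjusted P value under 0.05, as it did in the methods' test. That test, which lets the spread differ between groups and was adjusted over the probes 2-fold changed in some fiber group, also called 0 of 9, against 7.16% of all probes.

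Slides carried different groups, so the comparisons were repeated within slides. In LFA vs control the median difference of the 9 genes was 0.65, 0.25, and 0.77 on slides 1, 2, and 3, with 7, 7, and 9 genes higher. In NTL vs control it was 0.25 on slide 2 with 6 genes higher, and 0.65 on slide 3 with 9. In SFA vs control it was −0.11 on slide 2 with 3 genes higher, and 0.36 on slide 3 with 8. In NTS vs control it was 0.37 on slide 1 with 7 genes higher, and −0.44 on slide 2 with 2. B2m in NTL, for example, differed by −0.01 on slide 2 and 1.25 on slide 3, whereas Psmb8 differed by 0.49 and 0.72. Where a group was present, a slide held 1 to 3 of its arrays, and these within-slide values have no test. Slide 1 held no SFA or NTL array, and slide 3 no NTS array. NTL and NTS met only on slide 2, with 1 and 2 arrays. NTL replicates 2, 3, and 4 were on slide 3, scanned on day 2, and all NTS arrays were scanned on day 1. Differences between NTL and NTS can therefore hardly be told apart from those of slide and scan day.

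The 5′ to 3′ index went with the members' signals across the 20 arrays, in opposite directions for different probes. Pearson's r was −0.78 for B2m (permutation P = 2e-05 with 100000 resamples, Spearman's rho −0.85) and −0.62 for the brightest H2-K1 probe (permutation P = 0.0042, rho −0.58). It was 0.63 for the other H2-K1 probe (permutation P = 0.0028, rho 0.51) and 0.65 for Tap1 (permutation P = 0.0023, rho 0.57). Of the 11 member probes, 8 had a Benjamini-Hochberg adjusted permutation P value under 0.05 by both measures. The share of all probes that go with the index was not measured, so this count describes no trait of the members. The permutations took no account of group or slide. The other 3 were H2-D1 (r = 0.37, and 0.62 for deviations from the group means), Tapbp (−0.05), and Psmb8 (−0.17). Without the 2 arrays farthest from the median, SFA replicate 1 and LFA replicate 3, r was −0.81 for B2m, −0.67 and 0.50 for the H2-K1 probes, and 0.52 for Tap1. Within slide 2 (8 arrays) it was −0.79, −0.79, 0.80, and 0.76 in the same order, and within slide 3 (7 arrays) −0.75, −0.61, 0.72, and 0.64, and slide 1 held only 5 arrays. Opposite slopes for probes of 1 gene were thus measured in H2-K1, and also in Psmb9 (−0.61 for the brightest and 0.52 for the dim probe).

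**Figure D3:**
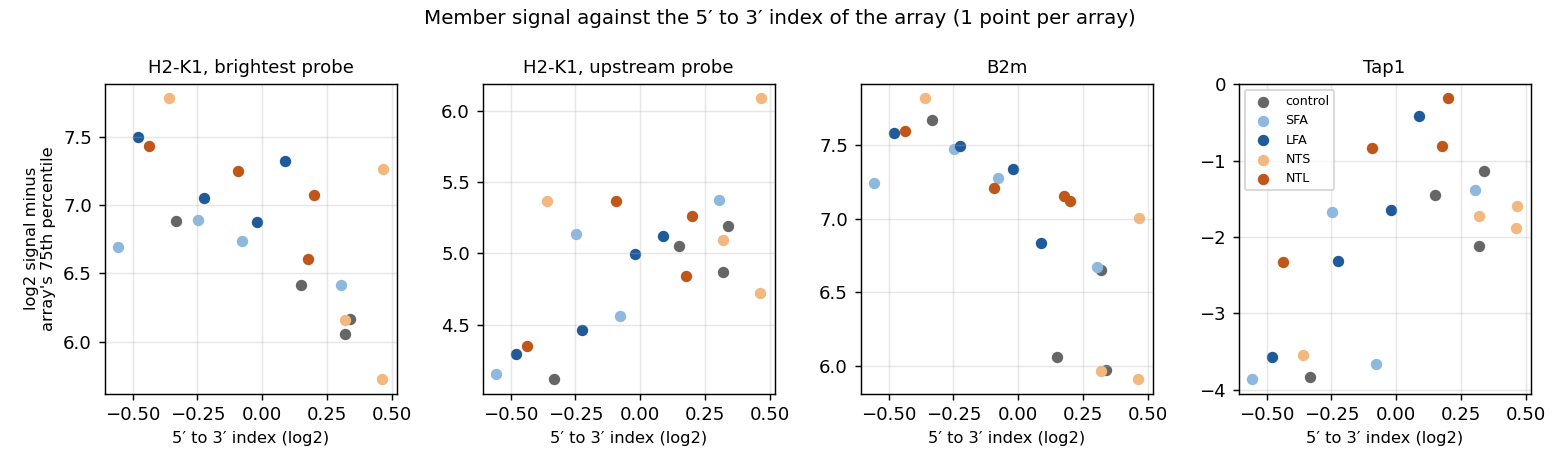
Log2 signal of both H2-K1 probes, B2m, and Tap1 on each of the 20 arrays against the array's 5′ to 3′ index (log2, centered), colored by group. B2m and the brightest H2-K1 probe fall with a rising index, and the other H2-K1 probe and Tap1 rise with it.

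With the index as a covariate, chosen after the data were seen, 1 of 9 members was called in NTL vs control, against 11.2% of all probes, and 1 in NTL vs NTS, against 12.7%. Both calls were Tap1, higher by 1.55 in NTL than in control (SE 0.44, adjusted P = 0.0234) and by 1.91 than in NTS (SE 0.45, adjusted P = 0.0092). With array brightness as a covariate instead, Tap1 differed by −0.06 and −0.34 in these comparisons. In LFA vs control, 0 of 9 members were called with the index, against 7.13%, and H2-K1 and B2m came down to 0.53 and 0.35, whereas Tap1 and H2-D1 went up to 0.96 (adjusted P = 0.178) and 0.50 (adjusted P = 0.114). H2-D1 in NTL passed the adjusted P value with the index without reaching 2-fold (0.63, adjusted P = 0.0323). Psmb8 hardly moved with the index, at 0.60 in LFA and 0.65 in NTL. Under quantile normalization, which moved the median of all probes in NTL vs control from −0.25 to −0.09, 2 of 9 members were called there against 5.84% of all probes. They were H2-K1 (1.23, adjusted P = 0.0292) and B2m (1.22, adjusted P = 0.0313), and in NTL vs NTS 1 member was called, B2m (1.07, adjusted P = 0.0493), against 7.73%.

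The swap of proteasome subunits was compared within each array, where the scaling of the array cancels. For each mouse the signal of the constitutive subunit was subtracted from that of the immunoproteasome subunit that replaces it, and the change of this difference against control was tested by a two-sided exact permutation test of 4 against 4 mice, whose smallest possible P value is 0.0286. Psmb8 against Psmb5 was 1.44 higher in NTL than in control, with all 4 mice above every control (exact P = 0.0286). In LFA it was 1.20 higher with 3 of 4 mice above (exact P = 0.0857). Psmb9 against Psmb6 was higher by 1.21 in LFA and 1.35 in NTL, with 4 of 4 mice above every control in each (exact P = 0.0286 both). Psmb10 against Psmb7 was higher by 1.11 in LFA (4 of 4, exact P = 0.0286) and 1.06 in NTL (3 of 4, exact P = 0.0571). In SFA the 3 changes were 0.29, 0.58, and 0.37, and in NTS −0.07, 0.09, and −0.10, with exact P values of 0.257 or more.

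Of the 12 tests, 4 thus had the smallest P value the design allows, and after Benjamini-Hochberg adjustment over the 12 these stood at 0.0857 and did not pass. Without control replicate 2 the number fell to 2. How often the difference between 2 other probes reaches this P value was not tested. Both sides of a pair entered the change. In NTL the constitutive subunits were lower by 0.79 (Psmb5), 0.71 (Psmb6), and 0.90 (Psmb7), and in LFA by 0.61, 0.45, and 0.95. The index did not go with the first 2 differences (r = 0.05 and −0.03, permutation P = 0.825 and 0.906) but did with Psmb10 against Psmb7 (r = −0.69, permutation P = 0.0012). On slides that held both groups, all 15 long-fiber values of the 3 pairs were above control, from 0.36 to 1.83. The 12 short-fiber values ran from −1.12 to 1.02, both of them Psmb10 against Psmb7 in NTS, on slides 2 and 1.

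**Figure D4:**
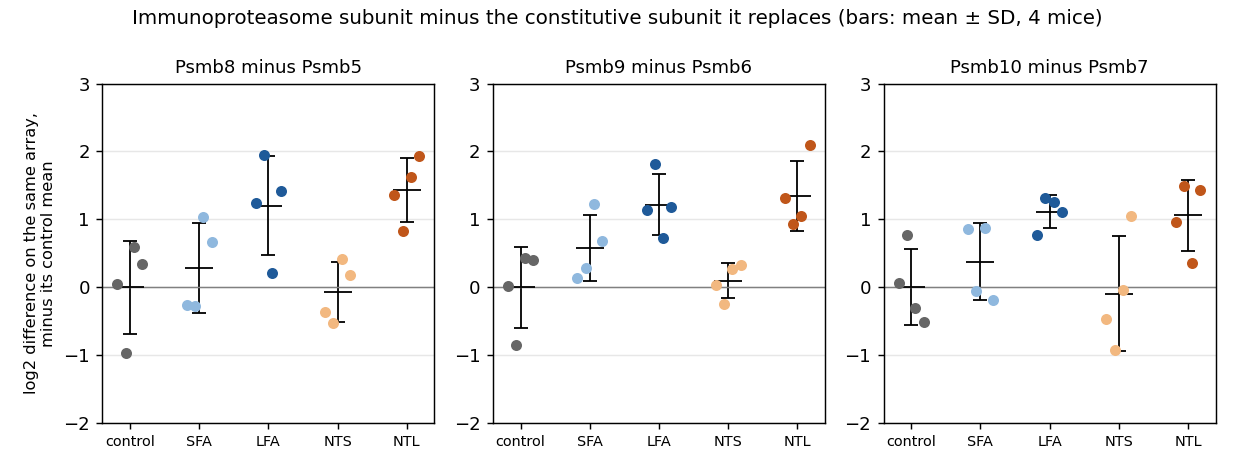
Difference of log2 signal between each immunoproteasome subunit and the constitutive subunit it replaces, on the same array and minus its control mean, with 1 point per mouse and bars for mean ± SD of 4 mice. LFA and NTL means lie 1.06 to 1.44 above control.

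The constitutive 20S core, the barrel of the proteasome, lay on the other side of 0. Of its 14 genes, Psmb5, Psmb6, and Psmb7 among them, 13 were lower in LFA and 14 in NTL, with medians of −0.32 and −0.46, beside −0.28 and −0.25 over all probes. Psmb7, the trypsin-like subunit that Psmb10 replaces, passed the adjusted P value in NTL vs control without reaching 2-fold, and fell by 1.05 in NTL vs NTS (adjusted P = 0.0218), the only core gene called in any of the comparisons of long fibers with control or short fibers. It ranged from 4.12 to 4.58 in control, 3.21 to 3.92 in NTL, and 3.78 to 4.86 in NTS. Without any 1 of NTL replicates 1, 2, or 4 or NTS replicates 1, 2, or 3 the call ended (−1.04 to −0.94), as it did with slide as a block (−0.97). Of 6 genes for proteasome activators and assembly 0 were called. The activator subunits Psme1 and Psme2, which interferon-γ induces with the members, stood at −0.30 and 0.30 in LFA and −0.50 and 0.02 in NTL.

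None of the 7 loading partners was called in a long-fiber comparison. The chaperones calreticulin (Calr, 0.26 in LFA and 0.16 in NTL) and calnexin (Canx, 0.07 and 0.13) and the peptide-trimming enzyme Erap1 (0.38 and 0.21) were near control. Pdia3, the disulfide isomerase of the loading complex, was 0.95 higher in LFA (adjusted P = 0.10) and 0.68 in NTL (adjusted P = 0.222).

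Other class I heavy chains were represented by 18 tested genes of 23 on the array. Their median change was 0.46 in LFA and 0.54 in NTL. Against control 1 was called in LFA (H2-M10.1) and 2 in NTL (H2-M3 and H2-M10.1), all upward. H2-M10.1 passed the filter only through these 2 groups. Of all probes 3.94% and 6.81% were called there, and with 18 genes these counts lie near those shares. The short nanotubes had a similar median, 0.41, with 15 of 18 higher and 0 called, and the median of NTL vs NTS was −0.09. The list's mean level was split in NTS, at −0.05 and −0.35 in replicates 1 and 2. It was 1.35 and 1.13 in replicates 3 and 4, which had the highest liver levels of all arrays (8.19 and 7.94). H2-M3, which presents formylated bacterial and mitochondrial peptides, ranged from −0.64 to 0.52 in control and from 1.04 to 1.51 in NTL. It rose by 1.33 in NTL vs control (adjusted P = 0.0157) and by 1.10 in NTL vs NTS (adjusted P = 0.0366). In LFA it was 1.004 higher (adjusted P = 0.0736). The NTL vs control call ended without NTL replicate 4 (1.27), and the NTL vs NTS call without any 1 of the 4 NTL mice or NTS replicates 1, 2, or 3 (1.05 to 1.20). With slide as a block both ended, at 1.03 and 0.65. H2-M10.1, a member of the family known from vomeronasal neurons, was not well above background on any control, SFA, or NTS array. It was well above background on 3 of 4 NTL arrays and 1 of 4 LFA arrays, and these 4 arrays are the filter's minimum. The probe thus entered the test only through groups where it was bright, and its P values give no support for a difference. With the main processing, the mean of the 4 NTL mice was at least 1.72-fold above control and at least 1.55-fold above NTS. No fold is given for its LFA calls against control and SFA. The calls in LFA also ended without LFA replicates 2 or 4, among others, and with slide as a block. With normexp background correction it was not called in any of these comparisons. Its differences were then 0.20 in NTL vs control and −0.044 in NTL vs NTS, so the bounds did not hold there.

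Among 13 class I-like molecules, of 15 on the array, 1 was called, in NTL vs control and NTL vs NTS (6.81% and 7.60% of all probes). The list's median was 0.65 in LFA, 0.42 in NTL, 0.24 in SFA, and 0.78 in NTS. Its mean level was highest in NTS replicates 4 and 3 (1.73 and 1.68), LFA replicates 3 and 1 (1.51 and 1.26), and SFA replicate 2 (1.46). The same arrays had the highest liver levels (7.94, 8.19, 7.18, 6.69, and 6.69). The other NTS and LFA mice were at −0.09 to 0.25, and the relation was not tested. Ulbp1, a stress-induced ligand of the NK receptor NKG2D, rose by 1.28 in NTL vs control (adjusted P = 0.0414) and by 1.97 in NTL vs NTS (adjusted P = 0.0027). The former call ended without any 1 of the control mice, NTL replicates 1, 2, or 4, SFA replicate 3, or LFA replicate 4 (0.97 to 1.38) and with slide as a block (1.35), and both calls ended with normexp background correction (0.36 and 0.42). It was 0.89 higher in LFA (adjusted P = 0.159). The lipid-presenting molecule Cd1d1 was at 0.97 in LFA, −0.06 in NTL, 0.90 in SFA, and 0.97 in NTS, and the IgG receptor Fcgrt at 0.22 and 0.42.

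Of 15 regulators 0 were called in LFA vs control, 2 in NTL vs control, and 3 in NTL vs NTS. Of all probes 3.94%, 6.81%, and 7.60% were called in these comparisons. Nlrc5, the transactivator of class I genes, was at −0.79 to 0.24 in control, 0.72 to 1.53 in LFA, and 0.77 to 1.63 in NTL. Control thus overlapped with neither long-fiber group. Of all tested probes, 6.34% had all 4 NTL mice above all 4 controls, and a smaller share had this in LFA. Nlrc5 rose by 1.31 in NTL vs control (adjusted P = 0.0384) and by 1.32 in NTL vs NTS (adjusted P = 0.0339), and was 1.18 higher in LFA (adjusted P = 0.0744). With all Nlrc5 probes averaged these NTL values were 0.57 and 0.54 and no longer passed. They also ended without any 1 of NTL replicates 1, 2, or 4, and without control replicates 1, 3, or 4 (1.10 to 1.36) or NTS replicates 1, 2, or 3 (1.02 to 1.38), each left out alone, and with slide as a block (1.27 and 1.31). Irf8, a transcription factor of macrophages and dendritic cells, rose by 1.07 in NTL vs control (adjusted P = 0.0258) and by 1.25 in NTL vs NTS (adjusted P = 0.0096), and was 0.91 higher in LFA (adjusted P = 0.0686). The call against control ended without NTL replicates 1, 2, or 4 or control replicates 1 or 4 (0.96 to 1.08). Slide as a block ended both calls, at 0.89 and 0.97. Nfkb1, a subunit of NF-κB, rose by 1.18 in NTL vs NTS (adjusted P = 0.0399), a call that ended without NTL replicates 2, 3, or 4, NTS replicates 2 or 3, or SFA replicate 4 (0.94 to 1.23), or with slide as a block (0.64). Irf1 and Ifng, of the interferon pathway, did not pass: in LFA and NTL Irf1 was at 0.37 and 0.31, and Ifng at 0.99 and 0.60.

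**Figure D5:**
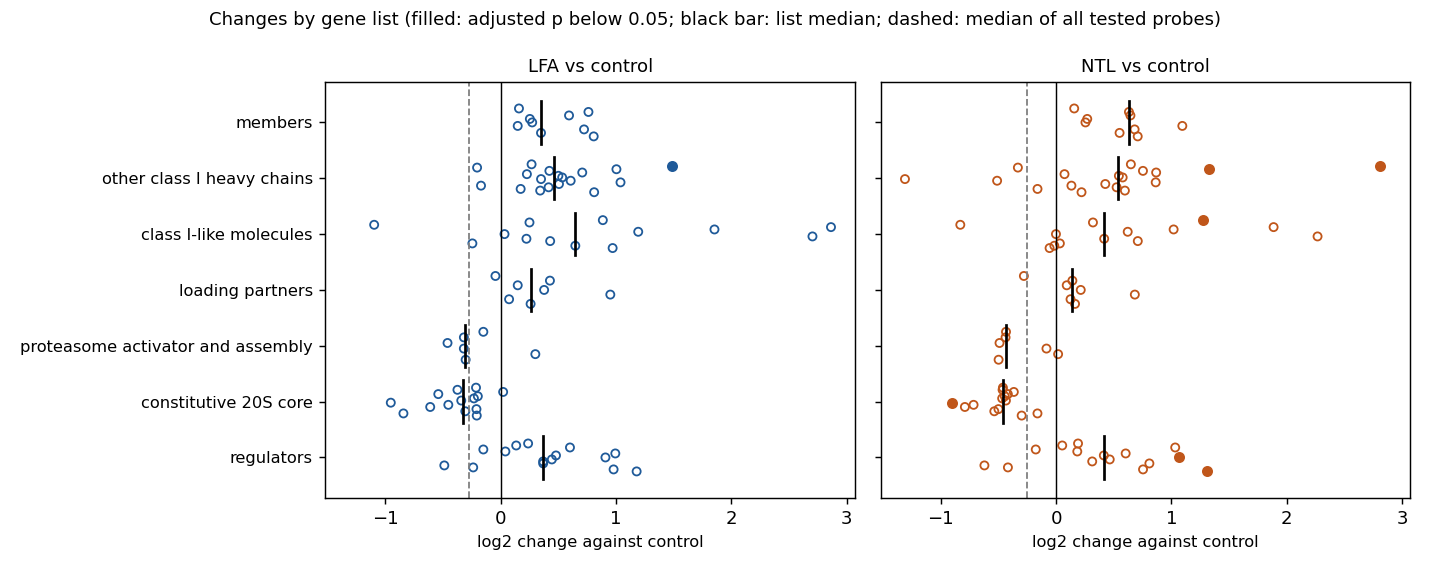
Log2 change against control of each tested gene of the 9 members and 6 further lists, in LFA (left) and NTL (right). Filled points have an adjusted P value under 0.05, black bars are list medians, and the dashed line is the median of all tested probes. The members' medians are 0.35 and 0.63, and those of the constitutive core −0.32 and −0.46.

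Macrophage and some other leukocyte markers moved in the same groups, and their part in the members' values was not tested. Of 8 macrophage markers 5 were called upward in LFA vs control and 5 in NTL vs control, among them Cd68 (1.95 and 2.39) and Csf1r (1.34 and 1.68). Itgam lay the other way, at −0.80 and −0.60 (adjusted P = 0.363 and 0.537). The mean level of the 8 markers relative to control was −0.12 to 0.09 in control, 0.01 to 0.36 in SFA, 0.93 to 1.80 in LFA, −0.08 to 0.07 in NTS, and 1.56 to 1.93 in NTL, and all 8 were well above background on every array. Ptprc (CD45), carried by all leukocytes, rose by 1.91 in NTL (adjusted P = 0.0065) and was 1.30 higher in LFA (adjusted P = 0.0638). Of 9 T cell markers 0 were called in LFA and 1, Cd5, in NTL, of 5 dendritic cell markers 0 and 3, and of 6 NK and cytotoxic genes 1, Gzmb, in each. The mean level of these 6 genes relative to control was 0.56 in SFA, 0.56 in LFA, 0.35 in NTS, and 0.62 in NTL. Of 5 B cell and 6 granulocyte markers 0 were called in either long-fiber group. Outside the leukocytes, 1 of 5 fibroblast markers was called upward in LFA and 3 in NTL. The shares over all probes were 3.94% in LFA vs control and 6.81% in NTL vs control. Of 9 skeletal muscle markers 2 were called downward in LFA and 3 in NTL, and their mean level was −1.26 to −0.67 in LFA and −1.48 to −1.23 in NTL relative to control. The mean level of the 9 members on the same scale was −0.17 to 0.24 in control, −0.18 to 0.47 in SFA, 0.26 to 0.71 in LFA, −0.33 to 0.38 in NTS, and 0.42 to 0.77 in NTL. On this level SFA overlapped with all other groups, and NTS overlapped with LFA but lay below NTL. All LFA and NTL mice lay above all control mice on it, in LFA narrowly (lowest LFA 0.26, highest control 0.24). Of the 9 single members, 0 separated in this way in LFA and 1 in NTL. How often the mean level of other gene sets of this size separates was not tested.

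The members resembled each other unevenly. Over the 20 arrays Pearson's r between pairs of members, given as a description, was highest for H2-D1 with Tap1 (0.83), Psmb9 with Tap2 (0.81), H2-K1 with Psmb9 (0.81), and B2m with H2-K1 (0.80). It was lowest for Tap1 with B2m (−0.45) and with Psmb10 (−0.44). Genes with opposite slopes on the 5′ to 3′ index were thus among the least alike. Outside the family, the 10 symbols of 18425 whose signals were most like the members' mean were Zbp1 (r = 0.93), Gm7609 (0.92), Usp18 (0.91), Cxcl10 (0.91), Aif1 (0.90), Fcgr4 (0.90), Batf2 (0.89), Gm4955 (0.89), Cd72 (0.89), and Mx1 (0.89). Zbp1, Usp18, Cxcl10, and Mx1 are known interferon-stimulated genes, Aif1 and Fcgr4 are expressed by macrophages, and Cd72 by B cells. These 20 arrays share groups and labeling, and r was used here only to order the genes.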

How the data were processed

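RNA from 20 diaphragms (TRIzol, Cy3) was hybridized to one-color Agilent arrays on 3 slides, scanned on 2 days, and read with Feature Extraction 10.7.3.1. The authors deposited, per array, background-subtracted signal intensity on a linear scale, and a table normalized in GeneSpring that holds log2 values of the authors per group, without replicates, which was set aside. Numbers of arrays limit the precision.

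Here log2 of the processed signal minus the 75th percentile of the array was used. Control spots and outlier spots (92 to 204 per array) were left out, no spot was saturated, and spots of a probe were averaged. A probe had to be well above background on 4 arrays. Groups came from the labels. R 4.3.3 and limma 3.58.1 (lmFit and eBayes, all 20 arrays, no covariate) gave the changes, with 95% intervals. Scripts were tested on simulated data. Replicate numbers did not pair the samples: deviations of same-numbered arrays had r over 0.1 in 14 of 40 pairs.

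Named were all members by their brightest probe, and from the other lists the called genes and set examples. The members' rule goes by symbol, but the family and the lists were proposed with earlier results of these data known. Alternatives covered background correction, normalization, dim-probe filter, probe averaging, slide, scan day, replicate block, brightness, the methods' test, and leaving out each mouse. The 5′ to 3′ index and the joint removal of LFA replicate 3 and NTS replicate 4 were added after the data were seen. RefSeq windows gave the sequences.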

Additional observations from a re-analysis of the deposited data

Results flagged for a closer look

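Among 70 groups of 4 values, 1 held a value set far apart: the Tap1 signal of NTS replicate 4 was −3.54, and the other 3 NTS mice lay between −1.89 and −1.60. About 1 group in 20 would be picked out in this way by chance. This array had the lowest 5′ to 3′ index of its group (−0.36), and the cause of its low Tap1 value was not tested.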

How the results depend on the processing

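The count of members called was 0 in every comparison under each alternative run, except the following. With the 5′ to 3′ index as a covariate it was 1 in NTL vs control, 1 in NTL vs NTS, and 1 over the 5 groups, and with quantile normalization 2 in NTL vs control and 1 in NTL vs NTS. The number of proteasome pair tests at the smallest possible P value, 4, ran from 2 (without control replicate 2) to 4 when mice were left out. With the replicate number as a block 0 members were called, the medians were 0.35 in LFA and 0.63 in NTL, and calls of Irf8 (NTL vs control), Nlrc5 (both), H2-M3 (NTL vs NTS), and Nfkb1 were lost.

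Slide as a block ended the calls of H2-M3, Nlrc5, Irf8, and Nfkb1, those of Ulbp1 in NTL vs control and Psmb7 in NTL vs NTS, and those of H2-M10.1 in LFA.

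These differences changed sign, and the cause was not tested. Array brightness as a covariate gave Tap1 −0.80 in LFA, −0.32 in LFA vs SFA, −0.061 in NTL, and −0.34 in NTL vs NTS, and H2-D1 −0.00022 in NTL vs NTS. The index gave Psmb10 −0.054 in LFA and −0.094 in NTL vs NTS. Slide as a block gave B2m −0.12 and Psmb10 −0.025 in LFA vs SFA. Averaged probes gave H2-K1 −0.0040 in NTL vs NTS. Normexp gave Tap1 −0.048 in LFA and H2-M10.1, a probe at background in the control and short-fiber groups, −0.052 in LFA, −0.11 in LFA vs SFA, and −0.044 in NTL vs NTS. Leaving out 1 mouse at a time, Tap1 in LFA ran from −0.42 to 0.67, B2m in LFA vs SFA from −0.020 to 0.30, and Psmb10 in NTL vs NTS from −0.055 to 0.25. In NTS vs control Psmb8 against Psmb5 ran from −0.40 to 0.12, Psmb9 against Psmb6 from −0.19 to 0.23, and Psmb10 against Psmb7 from −0.48 to 0.18, and in SFA vs control Psmb8 against Psmb5 from −0.037 to 0.48. Dim probes such as that of Tap1 had the widest spread.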
